A study of Mus musculus with 6 samples.

Results

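The genes for the proteins of the mitochondrial ribosome were described in duodenal epithelium, as the rows of the expression table whose symbol begins with Mrpl (large subunit) or Mrps (small subunit). There were 77 such genes among the 22611 in the table, 47 for the large subunit and 30 for the small subunit, and no minimum of expression was asked of them. RNA was sequenced from 3 WT mice and 3 *Esrra*-/- littermates, with 1 library per mouse. The *Esrra*-/- mice lacked *Esrra*, the gene of the orphan nuclear receptor ESRRA, through the germline and so in every tissue, the 6 mice had been kept on a high-fat diet for about 8 weeks, and both sexes had been used. The ages of the mice are not given in the sources used here. The epithelium of the duodenum was released with EDTA. The published methods do not say for these libraries whether villi and crypts were separated, but markers of both were found in each library.

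Mitochondrial ribosomes translate the few mRNAs of mitochondrial DNA, all of which code for membrane subunits of the oxidative phosphorylation complexes. Their rRNAs come from mitochondrial DNA, while every one of their proteins is encoded in the nucleus, made in the cytosol and imported. The small subunit binds the mRNA and decodes it, and the large subunit joins the amino acids and lets the new protein out through a tunnel beside the inner membrane. Many of the proteins have counterparts in bacteria and carry the same number, and the others were added in mitochondria. ESRRA is known as an activator of genes for mitochondrial energy metabolism, together with the PGC-1 coactivators.

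Values are FPKM, fragment counts divided by transcript length and by what was mapped in the library, which allow levels of different genes to be set side by side. The genotypes were compared with limma, a linear model that pools its estimate of the spread over genes, on log2(FPKM + 0.1), and log2 fold changes are *Esrra*-/- over WT on that scale. A call, lower or higher, took both an unadjusted p under 0.05 and a fold change of more than 0.58 on the log2 scale in either direction, and adjusted p-values were taken over all 10596 genes with a mean FPKM above 1. Of the 77 genes, 76 passed that filter. *Mrps36-ps1*, which is named as a pseudogene, was listed at 0 in all 6 libraries and was not tested.

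*Esrra* itself had 49.4, 73.5 and 104 FPKM in the WT mice and 10.4, 9.42 and 8.72 FPKM in the *Esrra*-/- mice, and its log2 fold change was −2.92 (SE 0.26, limma adjusted p = 0.0215). Transcripts of chromosome Y summed to 0.0487 FPKM in WT 3 and 0.222 FPKM in *Esrra*-/- 3, against 27.3 to 46.7 FPKM in the other 4 libraries, so these 2 libraries stood apart. Markers of crypt cells summed to 270.3 to 417 FPKM in the WT mice against 141 to 314 FPKM in *Esrra*-/-, with 13 of 14 log2 fold changes negative and 2 genes called lower. Those of Paneth cells summed to 11710.3 to 28593 FPKM in the WT mice against 2244 to 11625 FPKM in *Esrra*-/-, with 5 of 9 called lower, and 14 of 15 villus enterocyte markers had a positive log2 fold change, of which 0 were called. Over all genes tested 3.28% were called lower, 1.35% were called higher and 45.7% had a negative log2 fold change. Of 9 pancreatic acinar markers, 6 were listed at 0 in every library and none passed the filter, and 1 of 11 mesenchymal markers did. In bulk RNA such as this, fewer cells of a type and less RNA per cell cannot be told apart, and the part of these markers in the results on the mitochondrial ribosome was not tested. FPKM values do not give the depth of a library, and the spread between mice stands for the precision of each value.

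Both subunits leaned to lower levels in *Esrra*-/- mice, with modest fold changes. In the large subunit 41 of 47 log2 fold changes were negative and the median was −0.21, and in the small subunit 23 of 29 were negative and the median was −0.17 (−0.091 without WT 3 and −0.095 without *Esrra*-/- 1), while the median of all genes tested was 0.03 and 45.7% of them were negative. Of the large subunit genes 4 were called lower, *Mrpl12*, *Mrpl47*, *Mrpl51* and *Mrpl42*, and of the small subunit genes 3, *Mrps35*, *Mrps33* and *Mrps5*. These are 8.51% and 10.3% of the genes tested in each subunit, where 3.28% of all genes tested were called lower. Without WT 3 only 2 large subunit genes were called lower, where 3.76% of all genes were, so this count was close to the background. Without WT 1 or *Esrra*-/- 2 it was 7, where 3.58% and 5.07% of all genes were called lower. In the small subunit 1 was called without *Esrra*-/- 1 (2.38% of all genes) and 5 without *Esrra*-/- 2. No gene of either subunit was called higher (1.35% of all genes), and 0 had an unadjusted p under 0.05 with a positive log2 fold change (4.3% of all genes). An unadjusted p under 0.05 with a negative log2 fold change was found for 14 large subunit genes and 8 small subunit genes (6.49% of all genes). After adjustment 0 of the 76 genes had a limma adjusted p under 0.05, the smallest being 0.136 for *Mrpl12*, and 0.0378% of all genes did. The 3 *Esrra*-/- mice lay below the 3 WT mice for 21 large and 11 small subunit genes (9.14% of all genes), and above them for 0 (8.45% of all genes).

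**Figure D1:**
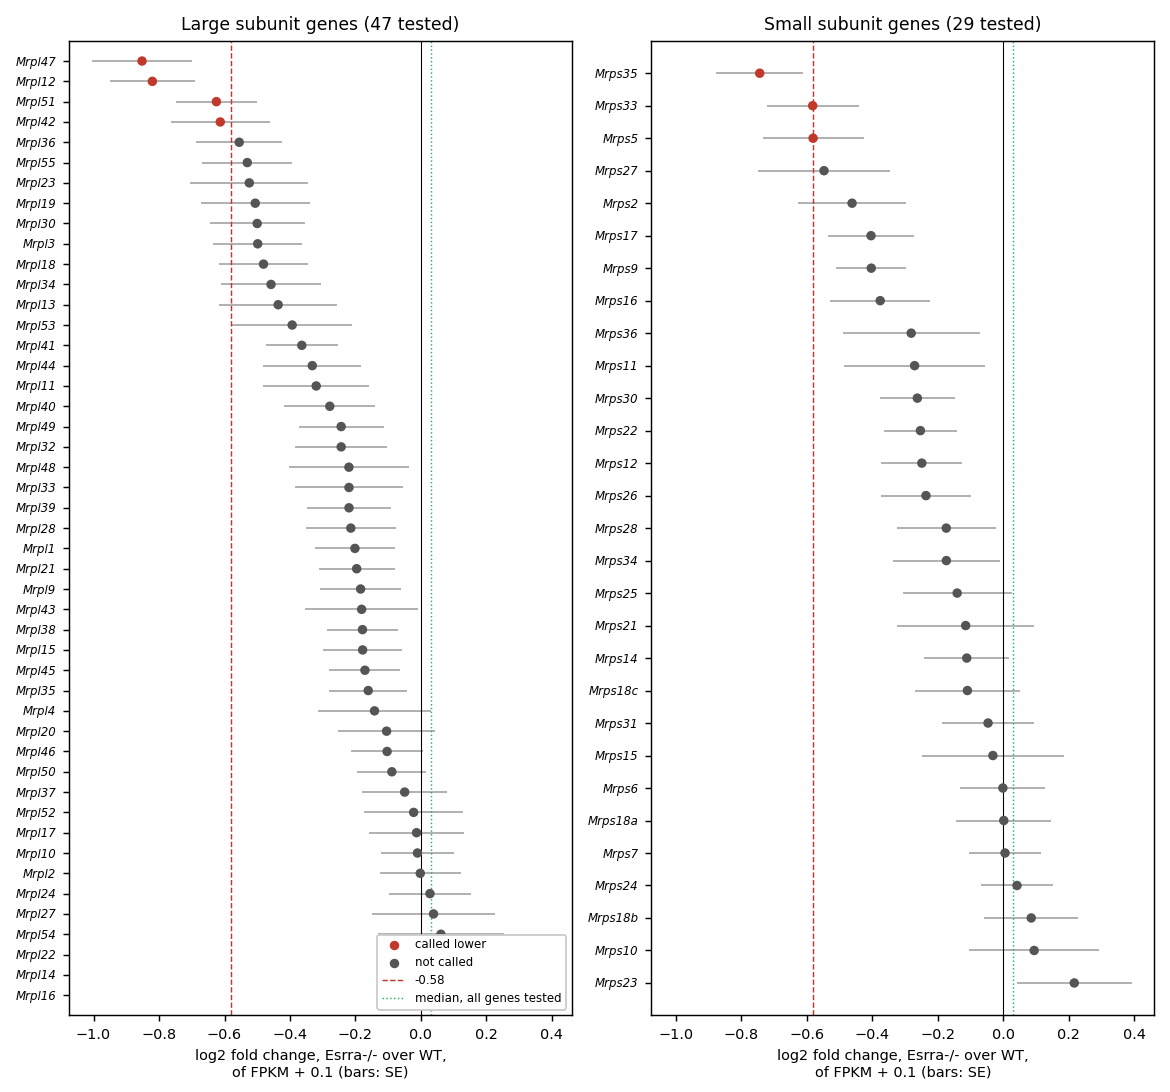
Log2 fold change (*Esrra*-/- over WT, of FPKM + 0.1) of each gene of the large and small subunit, with its standard error as a bar, the call threshold as a dashed line and the median of all genes tested as a dotted line. The 4 large and 3 small subunit genes called lower, in red, lie at the negative end of a range from −0.85 to 0.22.

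Summed over the 47 large subunit genes, expression was 1609, 1679 and 1962 FPKM in WT 1 to 3 and 1436, 1437 and 1588 FPKM in *Esrra*-/- 1 to 3. The 30 small subunit genes summed to 889, 899 and 1082 FPKM in the WT mice against 803, 832 and 901 FPKM in *Esrra*-/-. WT 3 was the highest library for both sums. For the large subunit *Esrra*-/- 3 lay below WT 1 and the genotypes did not overlap, and for the small subunit *Esrra*-/- 3 lay above WT 1 and WT 2. The sums weigh the most abundant genes most. Taking each gene's deviation from its own mean instead, the median over the large subunit was 0.01, 0.08 and 0.24 in WT mice 1 to 3 and −0.14, −0.14 and −0.05 in *Esrra*-/- mice 1 to 3. For the small subunit it was 0.04, 0.05 and 0.22 in WT mice 1 to 3 and −0.17, −0.07 and −0.09 in *Esrra*-/- mice 1 to 3. By this measure, on the log2 scale, neither subunit overlapped between the genotypes, and WT 3 again stood above WT 1 and WT 2.

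*Mrpl12* codes for the protein of the flexible stalk of the large subunit, which receives the translation factors, and had the smallest p of the 76 genes. It lies on the plus strand of chromosome 11, at 120345927 to 120350379 in mm9. It had 76.9, 80.7 and 90.1 FPKM in the WT mice and 44.02, 50.2 and 45.8 FPKM in the *Esrra*-/- mice, so every *Esrra*-/- mouse lay well below every WT mouse. With a WT mean of 82.6 ± 6.77 and an *Esrra*-/- mean of 46.7 ± 3.17 FPKM (SD, n = 3 per genotype), *Esrra*-/- stood at 56.5% of WT, a log2 fold change of −0.82 (SE 0.13, limma adjusted p = 0.136). *Mrpl12* stayed called with each library left out in turn, at −0.87 to −0.76. The exons of *Mrpl12* overlap those of the noncoding gene *Gm16755* on the other strand, for which the table holds no value, and the library kit does not mark the strand.

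Of the 6 called genes with a RefSeq promoter in the set, which has none for *Mrps35*, *Mrpl12* was the only one whose promoter, from 250 bases before to 50 bases after the transcription start, held AAGGTCA, the core of the element that ESRR receptors bind, on either strand. These letters are in 4.72% of all RefSeq promoters of this length and in 5.48% of those of the mitochondrial ribosome genes. The match, shown in capitals with its flanks on the strand of the gene (RefSeq, GRCm38.p6), begins 33 bases after the start and reads TGACCTT, since it lies on the opposite strand:
Mrpl12 chr11:120484660-120484686, plus strand: gagccgcgtgTGACCTTcccgcttgcg

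*Mrpl47* codes for a protein at the rim of the exit tunnel and was the least abundant gene of the large subunit. Expression was 5.70, 5.39 and 5.65 FPKM in the WT mice and 3.28, 3.39 and 2.54 FPKM in the *Esrra*-/- mice. The WT mice were nearly equal, the *Esrra*-/- mice all lay below them, and *Esrra*-/- 3 was the lowest. With a WT mean of 5.58 ± 0.165 and an *Esrra*-/- mean of 3.07 ± 0.463 FPKM (SD, n = 3 each) the log2 fold change was −0.85 (SE 0.15, limma adjusted p = 0.167), the most negative among the 76 genes. It stayed called without any 1 library, at −0.93 to −0.73. *Mrpl47* is on the minus strand of chromosome 3, at 32624319 to 32636069 in mm9, and its exons overlap those of *Ndufb5*, a subunit gene of complex I, on the opposite strand. *Ndufb5* had 174, 175 and 247 FPKM in the WT mice against 108, 107 and 132 FPKM in *Esrra*-/-, many times the level of *Mrpl47* and lower in every *Esrra*-/- mouse. Without strand, reads from the shared exons cannot be told apart, so the value of *Mrpl47* is uncertain. *Actl6a*, which overlaps *Mrpl47* as well, had 11.97, 14.9 and 10.99 FPKM in the WT mice against 11.7, 14.5 and 10.7 FPKM in *Esrra*-/-.

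*Mrpl51* and *Mrpl42* code for large subunit proteins without a bacterial counterpart, and *Mrpl42* was once listed as a small subunit protein. *Mrpl51* had 21.96, 20.4 and 25.2 FPKM in the WT mice and 14.6, 14.03 and 14.9 FPKM in the *Esrra*-/- mice. The *Esrra*-/- mice were nearly equal and lay below the WT mice, of which WT 3 was the highest. Its log2 fold change was −0.62 (SE 0.12, limma adjusted p = 0.207; a WT mean of 22.5 ± 2.49 and an *Esrra*-/- mean of 14.5 ± 0.436 FPKM, SD, n = 3 each). *Mrpl42*, among the 3 most abundant large subunit genes, had 99.9, 103 and 128 FPKM in the WT mice and 66.5, 71.3 and 77.3 FPKM in the *Esrra*-/- mice. Again the genotypes did not overlap, and replicate 3 was the highest of each. Its log2 fold change was −0.61 (SE 0.15, limma adjusted p = 0.289; a WT mean of 110.2 ± 15.2 and an *Esrra*-/- mean of 71.7 ± 5.44 FPKM, SD, n = 3 each). Without WT 3 neither was called, at −0.54 for *Mrpl51* and −0.50 for *Mrpl42*, and without *Esrra*-/- 1 *Mrpl42* was not called either, at −0.56. *Mrpl51* lies on the plus strand of chromosome 6, at 125141819 to 125145601 in mm9 and *Mrpl42* on the minus strand of chromosome 10, at 94943440 to 94964561 in mm9, and neither overlaps another annotated gene.

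**Figure D2:**
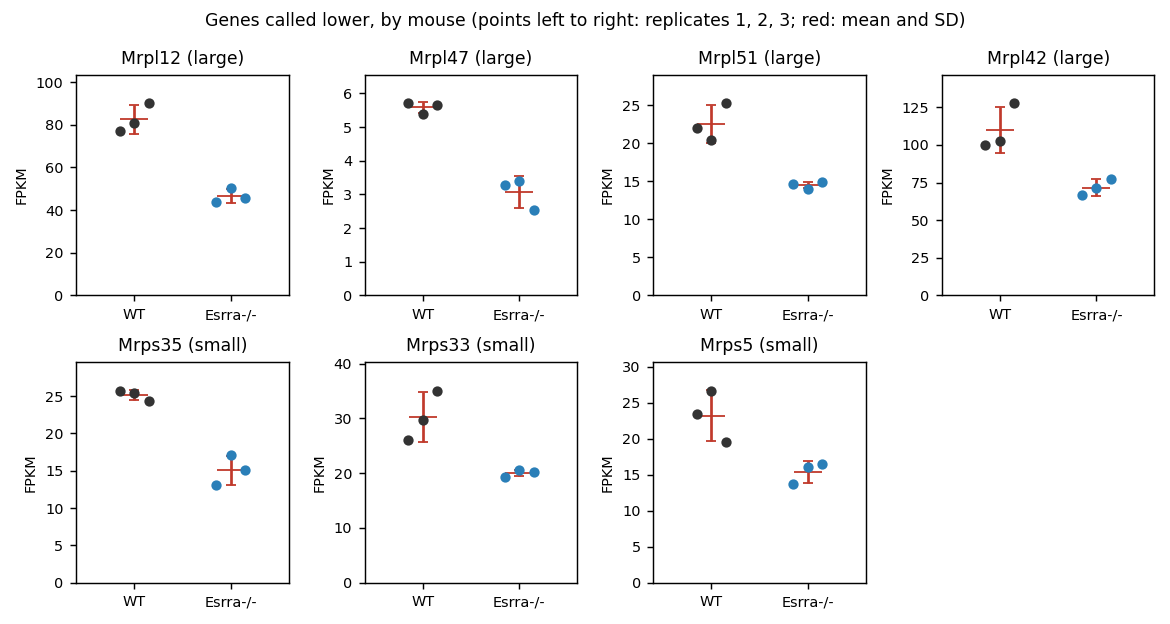
FPKM of the 7 genes called lower in each of the 6 mice (dots, replicates 1 to 3 from left to right), with the mean and SD of each genotype in red. In every panel the 3 *Esrra*-/- mice lie below the 3 WT mice; WT 3 is the highest point for *Mrpl12*, *Mrpl51*, *Mrpl42* and *Mrps33* and the lowest WT point for *Mrps35* and *Mrps5*.

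A further 10 large subunit genes had an unadjusted p under 0.05 with a smaller fold change, and were not called. They were *Mrpl36*, *Mrpl55*, *Mrpl3*, *Mrpl18*, *Mrpl30*, *Mrpl41*, *Mrpl19*, *Mrpl34*, *Mrpl23* and *Mrpl13*. *Mrpl36*, a short zinc-binding protein of bacterial type, came closest. It had 34.6, 37.6 and 40.6 FPKM in the WT mice and 25.9, 27.99 and 22.98 FPKM in the *Esrra*-/- mice, without overlap, and a log2 fold change of −0.56 (SE 0.13, limma adjusted p = 0.285). It was called without WT 1, at −0.61, and without *Esrra*-/- 2, at −0.62. *Mrpl55*, grouped here with the genes without a bacterial counterpart, had 28.3, 21.7 and 27.2 FPKM in the WT mice and 18.4, 17.1 and 17.6 FPKM in the *Esrra*-/- mice, and again no *Esrra*-/- mouse reached a WT mouse. Its log2 fold change was −0.53 (SE 0.14). *Mrpl23*, at the exit tunnel, had 33.2, 39.7 and 50.6 FPKM in the WT mice and 26.8, 26.3 and 31.8 FPKM in the *Esrra*-/- mice. WT 3 was by far the highest library, *Esrra*-/- 3 stood just below WT 1, and the log2 fold change was −0.52 (SE 0.18). *Mrpl3*, a protein near the peptidyl transferase centre, had a WT mean of 17.995 ± 0.704 and an *Esrra*-/- mean of 12.8 ± 1.85 FPKM and a log2 fold change of −0.50 (SE 0.14). *Mrpl18*, the counterpart of a bacterial protein that holds the smallest rRNA, had a WT mean of 36.7 ± 3.97 and an *Esrra*-/- mean of 26.2 ± 2.14 FPKM and a log2 fold change of −0.48 (SE 0.14). The exons of *Mrpl18* overlap those of *Tcp1* on the opposite strand, which had 61.8, 62.6 and 62.7 FPKM in the WT mice against 55.98, 55.8 and 57.3 FPKM in *Esrra*-/-, so the value of *Mrpl18* is uncertain in the same way as that of *Mrpl47*. Among all 77 genes 22 share exon sequence with an annotated gene on the opposite strand, among them *Mrpl44*, *Mrpl48* and *Mrpl49* with *Wdfy1*, *Rab6* and *Syvn1*. *Mrpl30*, also of bacterial type, had a WT mean of 45.3 ± 6.87 and an *Esrra*-/- mean of 31.7 ± 0.649 FPKM and −0.50 (SE 0.14), and *Mrpl41*, without a bacterial counterpart, had a WT mean of 34.3 ± 1.48 and an *Esrra*-/- mean of 26.6 ± 0.451 FPKM and −0.36 (SE 0.11). For the remaining 3, log2 fold changes were −0.51 for *Mrpl19*, −0.46 for *Mrpl34* and −0.44 for *Mrpl13*. Of these 10 genes only *Mrpl13* overlapped between the genotypes, where *Esrra*-/- 2 at 18.1 FPKM exceeded WT 1 at 17.3 FPKM. Leaving out 1 library brought others past the threshold for a call, *Mrpl55* without WT 2 at −0.65, *Mrpl30* without WT 1 at −0.62 and *Mrpl3* without *Esrra*-/- 2 at −0.61. *Mrpl23* passed it without WT 1 or *Esrra*-/- 3 and *Mrpl19* without *Esrra*-/- 1 or *Esrra*-/- 2, and over the 6 such fits their log2 fold changes ran from −0.67 to −0.36 and from −0.59 to −0.34.

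By place in the large subunit, *Mrpl12* and *Mrpl47* stood beside genes of which some had log2 fold changes near 0 and others well below it. *Mrpl51* and *Mrpl42* were not placed in a group, and the groups were chosen after the values were seen. Beside *Mrpl12*, the stalk and its base hold the products of *Mrpl10*, *Mrpl11*, *Mrpl53* and *Mrpl54*, and of these 5 genes only *Mrpl12* was called. *Mrpl10*, which anchors the *Mrpl12* protein, was almost equal in the 6 mice, with 28.7, 29.4 and 31.4 FPKM in the WT mice and 28.6, 30.1 and 30.1 FPKM in the *Esrra*-/- mice and a log2 fold change of −0.01 (SE 0.11). *Mrpl11* and *Mrpl53* had log2 fold changes of −0.32 (SE 0.16) and −0.39 (SE 0.18) with overlapping genotypes, and *Mrpl54* had 0.06 (SE 0.19). The other, mobile stalk of the ribosome is formed by the protein of *Mrpl1*, whose gene had a WT mean of 7.29 ± 0.590 and an *Esrra*-/- mean of 6.32 ± 0.406 FPKM and a log2 fold change of −0.20 (SE 0.12).

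Around the exit tunnel, where *Mrpl47* was called, the log2 fold changes of the other 5 genes spread from −0.52 to 0.06. *Mrpl45*, whose protein holds the ribosome at the inner membrane, had 19.5, 18.5 and 19.4 FPKM in the WT mice and 17.8, 16.2 and 17.1 FPKM in the *Esrra*-/- mice, a small gap between genotypes with a log2 fold change of −0.17 (SE 0.11). For *Mrpl17*, *Mrpl24* and *Mrpl22* the values were −0.01, 0.03 and 0.06, each within its standard error of 0 and each with overlapping genotypes. The 6 genes assigned to the central protuberance, the crest that faces the small subunit, all had negative log2 fold changes with a median of −0.20, and 0 were called. They were −0.28 for *Mrpl40*, −0.26 for *Mrps30*, −0.22 for *Mrpl48*, −0.18 for *Mrpl38*, −0.10 for *Mrpl46* and −0.02 for *Mrpl52*. *Mrpl18*, whose bacterial counterpart holds the smallest rRNA, was not placed in this group and stood at −0.48 (SE 0.14). The group was chosen after the values were seen. *Mrpl38* shows how small a difference can separate the mice, with 30.8, 31.05 and 31.8 FPKM in the WT mice and 27.1, 28.1 and 27.4 FPKM in the *Esrra*-/- mice and a log2 fold change of −0.18 (SE 0.11).

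The genes for proteins that build the peptidyl transferase centre, where peptide bonds form, and the face toward the small subunit ranged from below the median of the subunit to the top of its range. *Mrpl19* and *Mrpl3* stood at −0.51 and −0.50, *Mrpl4* at −0.14 (SE 0.17), *Mrpl2* at 0.00 (SE 0.12) and *Mrpl27* at 0.04 (SE 0.19). *Mrpl14* and *Mrpl16* had the most positive values of the large subunit. *Mrpl16*, which joins late in assembly beside the peptidyl transferase centre, had 18.6, 16.04 and 18.6 FPKM in the WT mice and 21.8, 17.2 and 20.6 FPKM in the *Esrra*-/- mice, with overlap and a log2 fold change of 0.16 (SE 0.14, limma adjusted p = 0.709). *Mrpl14* had 36.1, 33.7 and 50.4 FPKM in the WT mice and 36.5, 42.4 and 52.7 FPKM in the *Esrra*-/- mice. WT 3 and *Esrra*-/- 3 were the highest of their genotypes, and the log2 fold change of 0.14 (SE 0.21) was smaller than the spread between mice. *Mrpl22*, next in order, had 25.7, 23.6 and 25.9 FPKM in the WT mice and 29.3, 24.7 and 24.8 FPKM in the *Esrra*-/- mice.

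Among the other large subunit genes with a bacterial counterpart, log2 fold changes were −0.18 for *Mrpl9*, −0.18 for *Mrpl15*, −0.10 for *Mrpl20*, −0.20 for *Mrpl21*, −0.21 for *Mrpl28*, −0.24 for *Mrpl32*, −0.22 for *Mrpl33* and −0.16 for *Mrpl35*, and none of these 8 passed an unadjusted p of 0.05. *Mrpl32* codes for a zinc-binding protein cut to size by the m-AAA protease, *Mrpl20* for one that binds early in assembly, and *Mrpl35* for one of the least abundant transcripts of the subunit, with 6.31, 7.06 and 7.01 FPKM in the WT mice and 5.85, 5.84 and 6.51 FPKM in the *Esrra*-/- mice. Among the other genes added in mitochondria the values were −0.05 for *Mrpl37*, −0.22 for *Mrpl39*, −0.18 for *Mrpl43*, −0.33 for *Mrpl44*, −0.24 for *Mrpl49* and −0.09 for *Mrpl50*. *Mrpl44* had 10.1, 11.1 and 9.53 FPKM in the WT mice and 8.25, 9.42 and 6.84 FPKM in the *Esrra*-/- mice. The *Esrra*-/- mice lay just below the WT mice, and *Esrra*-/- 3 was the lowest. *Mrpl50* differed least of the genes without overlap, with 16.8, 17.2 and 16.8 FPKM in the WT mice and 15.2, 16.2 and 16.4 FPKM in the *Esrra*-/- mice. As grouped here, the 29 large subunit genes with a bacterial counterpart had a median log2 fold change of −0.20 and the 18 without one −0.22, each with 2 genes called lower (6.9% and 11.1%, against 3.28% of all genes). The 2 of the second group, *Mrpl51* and *Mrpl42*, both lost their call without WT 3 and among the mice with Y-linked transcripts.

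*Mrps35*, which codes for a small subunit protein without a bacterial counterpart, had the smallest p of its subunit. Its values were 25.7, 25.4 and 24.4 FPKM in the WT mice and 13.1, 17.1 and 15.04 FPKM in the *Esrra*-/- mice. The WT mice differed by little, and the highest *Esrra*-/- mouse stood far below them. There was a WT mean of 25.2 ± 0.710 and an *Esrra*-/- mean of 15.1 ± 1.98 FPKM (SD, n = 3 per genotype), which puts *Esrra*-/- at 59.9% of WT and the log2 fold change at −0.74 (SE 0.13, limma adjusted p = 0.165). It stayed called without any 1 library, at −0.84 to −0.65. *Mrps35* lies on the plus strand of chromosome 6, at 146991286 to 147019425 in mm9. *Mrps33*, likewise without a bacterial counterpart, had 26.1, 29.6 and 35.1 FPKM in the WT mice and 19.3, 20.5 and 20.3 FPKM in the *Esrra*-/- mice. The *Esrra*-/- mice were close together, and in WT the values were further apart with WT 3 the highest. Its log2 fold change was −0.58 (SE 0.14, limma adjusted p = 0.289; a WT mean of 30.3 ± 4.52 and an *Esrra*-/- mean of 20.04 ± 0.610 FPKM, SD, n = 3 each), at the threshold for a call. *Mrps5*, whose protein lines the entry of the mRNA channel, had 23.4, 26.7 and 19.6 FPKM in the WT mice and 13.7, 16.1 and 16.5 FPKM in the *Esrra*-/- mice. Here WT 3 was the lowest WT mouse, and *Esrra*-/- 3, the highest of its genotype, was the closest to it. The log2 fold change was −0.58 (SE 0.15, limma adjusted p = 0.307; a WT mean of 23.2 ± 3.58 and an *Esrra*-/- mean of 15.4 ± 1.53 FPKM, SD, n = 3 each). *Mrps33* lies on the minus strand of chromosome 6, at 39751803 to 39760987 in mm9 and *Mrps5* on the plus strand of chromosome 2, at 127412958 to 127432565 in mm9, and none of the 3 overlaps another annotated gene.

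The calls of *Mrps33* and *Mrps5* depended on single libraries. *Mrps33* was not called without WT 3, at −0.47, or without *Esrra*-/- 1, at −0.56. *Mrps5* was not called without *Esrra*-/- 1, at −0.50, without WT 1, at −0.57, or without WT 2, at −0.48. With a pseudocount of 1 both were just short of a call, at −0.56 for *Mrps33* and −0.55 for *Mrps5*.

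In the small subunit 5 more genes had an unadjusted p under 0.05 without being called, *Mrps9*, *Mrps17*, *Mrps2*, *Mrps27* and *Mrps16*. *Mrps27*, a pentatricopeptide repeat protein of the kind that binds RNA, had 10.8, 14.1 and 9.03 FPKM in the WT mice and 7.03, 9.27 and 6.66 FPKM in the *Esrra*-/- mice. *Esrra*-/- 2 lay above WT 3, so the genotypes overlapped, and the log2 fold change was −0.55 (SE 0.20, limma adjusted p = 0.408). It was called without WT 3, at −0.70, and without *Esrra*-/- 2, at −0.69. *Mrps9*, a head protein that reaches toward the tRNA in the peptidyl site, was the steadiest of these genes within each genotype. It had 19.8, 19.8 and 18.5 FPKM in the WT mice and 14.9, 14.7 and 14.2 FPKM in the *Esrra*-/- mice, without overlap, and −0.40 (SE 0.11). *Mrps2*, between head and body, had a WT mean of 16.7 ± 1.56 and an *Esrra*-/- mean of 12.2 ± 2.39 FPKM and a log2 fold change of −0.46 (SE 0.16), and without *Esrra*-/- 2 it was called, at −0.61. *Mrps17* and *Mrps16*, proteins of the body that bind the rRNA early in bacteria, had −0.40 (SE 0.13) and −0.38 (SE 0.15), and neither overlapped between genotypes.

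The other genes of the head and of the decoding centre described here did not reach an unadjusted p under 0.05, the rule by which the genes above were picked. *Mrps12*, whose protein forms part of the decoding centre, had 32.2, 31.9 and 36.1 FPKM in the WT mice and 25.8, 29.9 and 28.6 FPKM in the *Esrra*-/- mice, without overlap and with a log2 fold change of −0.25 (SE 0.12). For the head proteins *Mrps14*, *Mrps24*, *Mrps7* and *Mrps10* the values were −0.11, 0.04, 0.01 and 0.09. Of these 4, *Mrps10* varied most between *Esrra*-/- mice, with 21.2, 20.4 and 20.4 FPKM in the WT mice and 23.3, 28.2 and 16.3 FPKM in the *Esrra*-/- mice, so that *Esrra*-/- 2 was the highest and *Esrra*-/- 3 the lowest of the 6 libraries. On the platform, *Mrps11* had −0.27 (SE 0.22), with 9.75 FPKM in *Esrra*-/- 1 and 16.95 and 15.8 FPKM in *Esrra*-/- 2 and 3, against 15.4 to 18.1 FPKM in WT. The exons of *Mrps11* and *Mrpl46* overlap on opposite strands, and *Mrpl46*, at −0.10 (SE 0.11), had no such low value in *Esrra*-/- 1. *Mrps15*, *Mrps6* and *Mrps21* had log2 fold changes of −0.03, 0.00 and −0.12, all with overlapping genotypes.

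*Mrps18a*, *Mrps18b* and *Mrps18c* are paralogs of one bacterial small subunit gene, and the product of *Mrps18a* sits in the large subunit. *Mrps18a* had 25.5, 27.8 and 33.9 FPKM in the WT mice and 28.4, 31.3 and 27.2 FPKM in the *Esrra*-/- mice, a log2 fold change of 0.00 (SE 0.15). *Mrps18b* was at 0.09 (SE 0.14) and *Mrps18c* at −0.11 (SE 0.16), and all 3 overlapped between genotypes. The product of *Mrps30* also sits in the large subunit, in the central protuberance. The gene had 17.9, 19.7 and 19.8 FPKM in the WT mice and 17.03, 15.8 and 15.03 FPKM in the *Esrra*-/- mice, without overlap, and a log2 fold change of −0.26 (SE 0.12, limma adjusted p = 0.474). *Mrps36* is now known as the gene of a protein of the oxoglutarate dehydrogenase complex. It had 84.9, 83.02 and 125 FPKM in the WT mice and 73.1, 70.4 and 95.1 FPKM in the *Esrra*-/- mice, and with WT 3 far above the rest and *Esrra*-/- 3 above WT 1 and WT 2 the log2 fold change was −0.28 (SE 0.21). Sorted by structure, the large subunit with *Mrps18a* and *Mrps30* had a median of −0.21 over 49 genes, and the small subunit without those and *Mrps36* had −0.17 over 26.

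The remaining small subunit genes, most of which code for proteins added in mitochondria, were not called, and none passed an unadjusted p of 0.05. For *Mrps22* and *Mrps26* every *Esrra*-/- mouse lay below every WT mouse, with log2 fold changes of −0.25 (SE 0.11) and −0.24 (SE 0.14). *Mrps26*, the least abundant, had 5.02, 4.32 and 5.28 FPKM in the WT mice and 4.20, 4.31 and 3.82 FPKM in the *Esrra*-/- mice, where *Esrra*-/- 2 and WT 2 were all but equal. *Mrps23* had the most positive log2 fold change of all 76 genes, at 0.22 (SE 0.17, limma adjusted p = 0.686), from 25.7, 19.1 and 22.4 FPKM in the WT mice and 24.9, 22.2 and 31.2 FPKM in the *Esrra*-/- mice. *Esrra*-/- 3 alone stood above the WT mice, and the genotypes overlapped. For the others, values were −0.17 for *Mrps28*, −0.17 for *Mrps34*, −0.14 for *Mrps25* and −0.05 for *Mrps31*, all with overlap. The 17 small subunit genes with a bacterial counterpart had a median of −0.11 with 1 called lower (5.88%, against 3.28% of all genes), and the 12 without one had −0.24 with 2 called lower (16.7%). The 1 call of the first group, *Mrps5*, and 1 of the 2 in the second, *Mrps33*, depended on single libraries, as given above. *Mrps28* was placed among the 12, although its protein is now named as the counterpart of a bacterial one. The difference between these medians was not tested. With the trend of each library with transcript length removed, the first became 0.02, on the other side of 0, and the second −0.18.

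The transcripts of the ribosome were not present at one level, although the assembled ribosome holds most of its proteins once. Mean levels over the 6 libraries ran from 4.33 FPKM for *Mrpl47* to 151 FPKM for *Mrps21*, a ratio of 34.8. The 3 highest of the large subunit were *Mrpl54* (a WT mean of 128 ± 22.8 and an *Esrra*-/- mean of 133 ± 21.5 FPKM), *Mrpl52* (a WT mean of 123 ± 14.2 and an *Esrra*-/- mean of 120.4 ± 10.6 FPKM) and *Mrpl42*, and the 3 lowest were *Mrpl47*, *Mrpl35* and *Mrpl1* at 4.33, 6.43 and 6.81 FPKM. In the small subunit the highest were *Mrps21* (a WT mean of 157 ± 35.2 and an *Esrra*-/- mean of 144 ± 24.6 FPKM), *Mrps36* and *Mrps15* (a WT mean of 87.1 ± 22.1 and an *Esrra*-/- mean of 84.2 ± 13.8 FPKM), and the lowest were *Mrps26*, *Mrps25* and *Mrps27* at 4.49, 5.98 and 9.48 FPKM. Over the mice of each genotype the levels of *Mrpl54*, *Mrpl52* and *Mrps21* overlapped. Within every library *Mrps21* stood above *Mrpl52*, while the place of *Mrpl54* against both varied between libraries. The ranking of the genes hardly differed between mice, with a Spearman correlation of 0.933 to 0.974 over the 76 genes in the 15 pairs of libraries, which share the same lengths and the same tissue. Within a genotype the coefficient of variation of a gene had a median of 9.39% and ran from 0.840% to 27.3%. WT 3 was the highest library for 43 of the 76 genes and *Esrra*-/- 1 the lowest for 30.

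**Figure D3:**
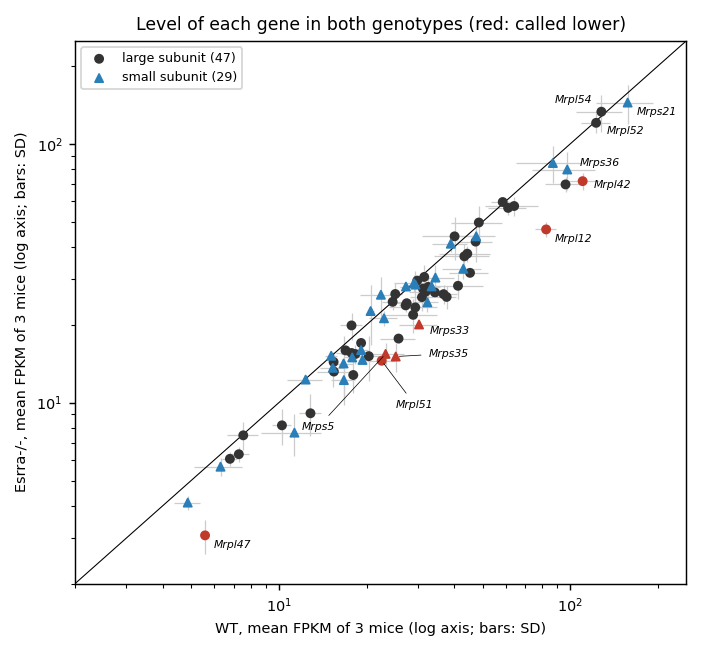
Mean FPKM of each tested gene in WT (horizontal) and *Esrra*-/- (vertical), both on log axes, with the SD of 3 mice as bars, circles for the large and triangles for the small subunit, and the line of equal levels. The genes span from 4.33 to 151 FPKM along the line, most lie on or a little below it, and the 7 called genes (red) occur from the bottom to near the top.

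The called genes were spread over the range of levels. Across the 76 genes, which share libraries and are not independent, Spearman's rho of the log2 fold change was 0.13 with the mean level and −0.10 with the length of the longest annotated transcript, while level and length had a rho of −0.60. They reach from *Mrpl47*, the lowest of the large subunit, to *Mrpl42*, among the highest. Log2 fold changes lay within 0.2 of 0 for 36 genes, below −0.2 for 39 and above 0.2 for 1, *Mrps23*.

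WT 3, one of the libraries without Y-linked transcripts, differed from the others in a trend with transcript length. Over all genes tested, cut into 5 equal classes by the longest annotated transcript, the median deviation from each gene's mean in WT 3 went from 0.23 in the shortest class to −0.19 in the longest, on the log2 scale. In *Esrra*-/- 3, the other library without them, it went from 0.06 to −0.01. The median log2 fold change of all genes went from −0.09 in the shortest class to 0.09 in the longest. Genes of the mitochondrial ribosome are mostly short, with 45 of the 76 in the shortest class, where their median log2 fold change was −0.20. In the next classes it was −0.20 (14 genes), −0.22 (5 genes), −0.20 (9 genes) and −0.44 (3 genes), so it lay below that of all genes in every class. With the trend of each library with length removed, an alternative chosen after the data had been seen, the medians became −0.17 for the large and −0.12 for the small subunit. *Mrpl12*, *Mrpl47*, *Mrpl51*, *Mrps35* and *Mrps5* were still called, where 2.7% of all genes were called lower, at −0.73, −0.87, −0.62, −0.79 and −0.62, and *Mrpl42* and *Mrps33* were not, at −0.43 and −0.47.

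**Figure D4:**
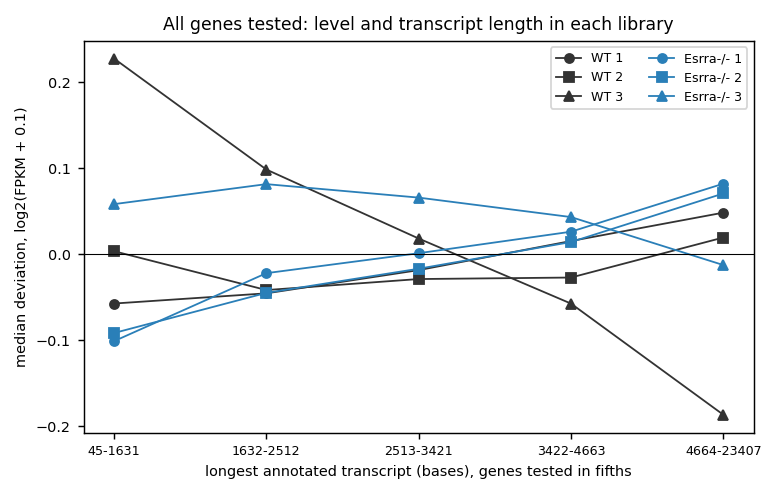
Median deviation of all genes tested from their own means, on the log2(FPKM + 0.1) scale, in 5 equal classes of transcript length (horizontal, in bases) for each of the 6 libraries. The line of WT 3 falls from 0.23 to −0.19, that of *Esrra*-/- 3 goes from 0.06 to −0.01, and those of *Esrra*-/- 1 and 2 rise from −0.10 and −0.09 to 0.08 and 0.07.

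For the called genes the sign of a difference within a part of the mice is fixed, since every *Esrra*-/- mouse lay below every WT mouse, and only its size can vary. Among the 2 WT and 2 *Esrra*-/- mice with Y-linked transcripts, log2 fold changes were −0.74 for *Mrpl12*, −0.72 for *Mrpl47*, −0.56 for *Mrpl51*, −0.56 for *Mrpl42*, −0.77 for *Mrps35*, −0.48 for *Mrps33* and −0.75 for *Mrps5*. Between *Esrra*-/- 3 and WT 3 the differences in log2(FPKM + 0.1) were −0.97, −1.12, −0.76, −0.72, −0.69, −0.79 and −0.25 in the same order, with 1 mouse each and so no test. The medians over the subunits among the mice with Y-linked transcripts were −0.19 for the large and −0.13 for the small subunit. With the presence of Y-linked transcripts as a covariate, *Mrpl12* had a limma adjusted p of 0.0476. Over all alternatives its adjusted p ran from 0.0476 to 0.587.

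RefSeq promoters (GRCm38.p6, 250 bases before to 50 after the start) were found for 67 of the 77 genes, as 73 promoters, and *Mrpl13*, *Mrpl15*, *Mrpl19*, *Mrpl38*, *Mrpl4*, *Mrpl54*, *Mrps28*, *Mrps34*, *Mrps35* and *Mrps36-ps1* had none in the set. Each was searched on both strands for 5 strings, the ESRR element TCAAGGTCA, its core AAGGTCA, which the longer string contains, and elements bound by NRF1, by ETS factors such as GABPA (CCGGAAGT) and by YY1 (AAGATGGCG), regulators known from genes of mitochondria. A match is a run of letters and not a shown binding site. TCAAGGTCA was in 0 of the 73 promoters, against 0.423% of all 32851 promoters, and AAGGTCA in 4 (5.48%), against 4.72%. Beside *Mrpl12*, the genes with AAGGTCA were *Mrpl36*, *Mrps15* and *Mrps21*, whose log2 fold changes were −0.56, −0.03 and −0.12. Their windows are shown for comparison with that of *Mrpl12*, with the match in capitals; they were picked after the values were seen. The matches begin 39 bases before the start in *Mrpl36*, 125 in *Mrps15*, and 63 and 175 in *Mrps21*:
Mrpl36 chr13:73330950-73330996, plus strand: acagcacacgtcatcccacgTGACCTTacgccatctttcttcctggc
Mrps15 chr4:126046783-126046829, plus strand: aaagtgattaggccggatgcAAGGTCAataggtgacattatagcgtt
Mrps21 chr3:95871551-95871597, minus strand: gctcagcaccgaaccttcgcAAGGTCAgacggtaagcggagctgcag
Mrps21 chr3:95871663-95871709, minus strand: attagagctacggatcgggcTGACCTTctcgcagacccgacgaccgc

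The NRF1 string, a palindrome, was in 3 of the 73 promoters (4.11%, against 0.971% of all promoters), those of *Mrpl9*, *Mrpl32* and *Mrpl39*, none of them called, with log2 fold changes of −0.18, −0.24 and −0.22. The matches begin 28, 87 and 125 bases before the start:
Mrpl9 chr3:94443288-94443335, plus strand: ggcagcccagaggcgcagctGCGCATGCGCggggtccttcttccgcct
Mrpl32 chr13:14613095-14613144, minus strand: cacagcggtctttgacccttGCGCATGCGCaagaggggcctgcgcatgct
Mrpl39 chr16:84735340-84735389, minus strand: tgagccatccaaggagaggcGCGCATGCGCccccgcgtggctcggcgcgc

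The ETS string CCGGAAGT was in 12 promoters (16.4%, against 3.89%) and the YY1 string AAGATGGCG in 8 (11.0%, against 1.4%). Of the called genes *Mrpl51* held the first and *Mrpl42* the second. *Mrps27*, not called, held both. The windows are shown for the genes with an unadjusted p under 0.05. Those with the ETS string, which begins 90 bases before the start in *Mrpl51*, 19 in *Mrpl3*, 240 in *Mrpl18* and 49 in *Mrps27*, read:
Mrpl51 chr6:125192090-125192137, plus strand: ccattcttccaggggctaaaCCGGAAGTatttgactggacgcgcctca
Mrpl3 chr9:105053229-105053267, plus strand: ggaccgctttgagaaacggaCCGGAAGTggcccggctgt
Mrpl18 chr17:12916304-12916341, minus strand: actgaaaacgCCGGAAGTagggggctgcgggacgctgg
Mrps27 chr13:99344717-99344764, plus strand: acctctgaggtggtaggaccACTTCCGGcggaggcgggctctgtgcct

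Those with the YY1 string, which begins 27 bases after the start in *Mrpl42*, 31 before it in *Mrpl36* and 14 after it in *Mrps27*, read:
Mrpl42 chr10:95501904-95501932, minus strand: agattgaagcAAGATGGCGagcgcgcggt
Mrpl36 chr13:73330958-73331006, plus strand: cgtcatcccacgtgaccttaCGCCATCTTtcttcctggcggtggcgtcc
Mrps27 chr13:99344790-99344818, plus strand: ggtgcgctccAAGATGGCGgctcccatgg

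In *Mrpl36* the AAGGTCA and YY1 windows overlap, with the matches next to each other. The other genes with the ETS string were *Mrpl27*, *Mrpl33*, *Mrpl43*, *Mrpl48*, *Mrpl52*, *Mrps18c*, *Mrps22*, *Mrps26*, with log2 fold changes from −0.25 to 0.04, and with the YY1 string *Mrpl35*, *Mrpl37*, *Mrps11*, *Mrps18a*, *Mrps24*, from −0.27 to 0.04. The promoters of *Mrpl47*, *Mrps33* and *Mrps5* held none of the 5 strings in this window.

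Some proteins of the mitochondrial ribosome have symbols that begin otherwise. All 7 genes tested had negative log2 fold changes with a median of −0.21, and 0 were called. They were *Chchd1* at −0.33 (SE 0.13), *Ptcd3*, the pentatricopeptide protein of the small subunit, at −0.34 (SE 0.18), *Gadd45gip1* at −0.23 (SE 0.13), and *Mrp63*, *Ict1*, *Aurkaip1* and *Dap3* at −0.21, −0.16, −0.15 and −0.13. Of 15 genes for factors of mitochondrial translation, 14 had a negative log2 fold change (median −0.26) and 2 (13.3%) were called lower, against 45.7% and 3.28% of all genes. *Metap1d*, an aminopeptidase that removes the first methionine, had 7.17, 5.06 and 6.75 FPKM in the WT mice and 3.88, 4.43 and 3.02 FPKM in the *Esrra*-/- mice. The genotypes did not overlap, and the log2 fold change was −0.73 (SE 0.20, limma adjusted p = 0.313). *Guf1*, a GTPase that acts on stalled ribosomes, had 5.42, 5.58 and 4.42 FPKM in the WT mice and 4.03, 2.92 and 2.59 FPKM in the *Esrra*-/- mice, also without overlap, and −0.69 (SE 0.20, limma adjusted p = 0.328). *Guf1* was not called without *Esrra*-/- 3 or with a pseudocount of 1, at −0.56 and −0.57, and *Metap1d* was not called among the mice with Y-linked transcripts, at −0.53. Of the 49 genes in the lists of other ribosomal proteins, translation factors and assembly, 2 were called lower (4.08%, against 3.28% of all genes). Without WT 3 there were 5, where 3.76% of all genes were called lower, and without *Esrra*-/- 2 there were 4, where 5.07% were. *Tsfm*, the exchange factor of the elongation factor *Tufm*, was just short of a call at −0.57 (SE 0.17), and *Tufm* and *Gfm1*, the elongation factors, were at −0.25 and −0.39. Of 27 genes for ribosome assembly and rRNA processing, 20 were negative (median −0.14) and 0 were called. There *Afg3l2*, a subunit of the m-AAA protease, had −0.39 (SE 0.11), *Mterfd1* −0.31 (SE 0.12), and *Rpusd3*, a pseudouridine synthase family member, was positive at 0.48 (SE 0.16) with all 3 *Esrra*-/- mice above WT.

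The 13 mRNAs of mitochondrial DNA, which these ribosomes translate, all had negative log2 fold changes with a median of −0.33 (−0.16 with the length trend removed), but every one overlapped between genotypes and 0 were called or had an unadjusted p under 0.05. *mt-Nd3*, with the smallest p, had 5309.5, 6425 and 10047 FPKM in the WT mice and 4948, 4388 and 6763 FPKM in the *Esrra*-/- mice, and WT 3 exceeded all other libraries. *mt-Nd2* and *mt-Nd6* had log2 fold changes of −0.38 (SE 0.36) and −0.30 (SE 0.33). The rRNAs of the mitochondrial ribosome were not analysed here.

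Nuclear genes of oxidative phosphorylation, whose products join those the mitochondrial ribosome makes in the same complexes, had a median log2 fold change of −0.60, further from 0 than that of either subunit. Of 80 such genes 47 (58.8%) were called lower and 1 higher, against 3.28% and 1.35% of all genes. The 3 with the smallest p were the complex I subunit genes *Ndufa5*, *Ndufc1* and *Ndufv1*, at −1.23 (SE 0.21), −1.04 (SE 0.20) and −0.80 (SE 0.16). Of 79 genes for the proteins of the cytosolic ribosome 2 were called lower (2.53%, against 3.28% of all genes), 77 were negative and the median was −0.30, or −0.16 with the length trend removed. There the smallest p-values were those of *Rps4y2* and *Rps18*, the called genes, at −1.62 (SE 0.33) and −3.19 (SE 0.93), and of *Rps15a*, not called, at −0.53 (SE 0.17). Genes of this kind have near-identical copies, so these values are uncertain. These lists share the mice and their differences from the mitochondrial ribosome were not tested. For oxidative phosphorylation the median deviation by library was 0.11, 0.16 and 0.66 in WT mice 1 to 3 and −0.42, −0.46 and −0.05 in *Esrra*-/- mice 1 to 3, and for the cytosolic ribosome it was −0.03, 0.24 and 0.24 in WT mice 1 to 3 and −0.24, −0.07 and −0.13 in *Esrra*-/- mice 1 to 3. WT 3 was the highest library for oxidative phosphorylation as for both subunits of the mitochondrial ribosome, and for the cytosolic ribosome WT 2 stood level with it.

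**Figure D5:**
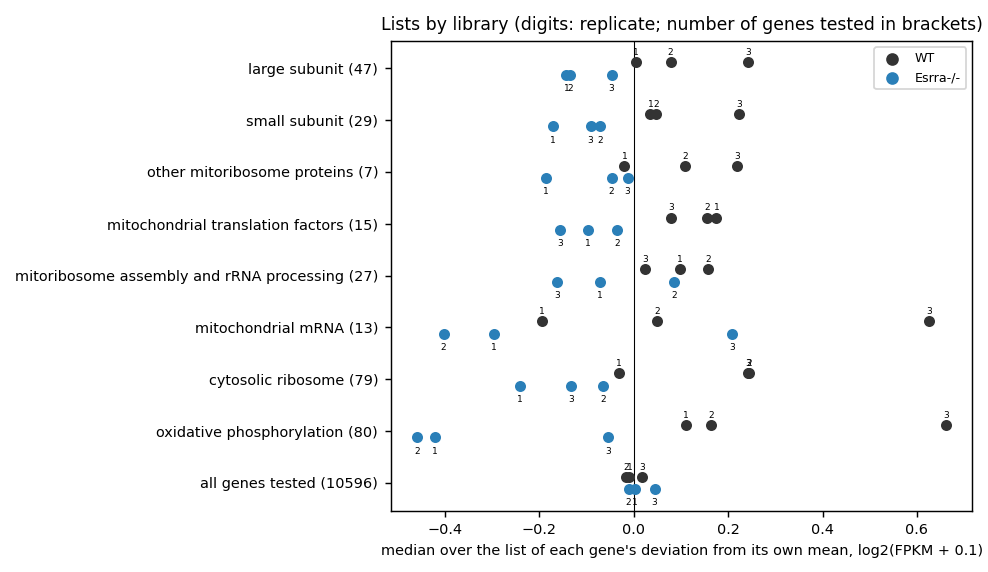
Median over each list of the deviation of its genes from their own means, on the log2(FPKM + 0.1) scale, for each library (dark WT, blue *Esrra*-/-, digits for the replicate). Both subunits separate the genotypes with WT 3 farthest to the right. The translation factors, oxidative phosphorylation and the cytosolic ribosome separate them as well. The other mitoribosome proteins, the mitochondrial mRNAs and the assembly genes do not, and all genes tested lie near 0.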

How the data were processed

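RNA of 6 samples of duodenal epithelium, 3 WT and 3 *Esrra*-/-, grouped by their titles, was prepared with a TruSeq v2 kit, which does not mark the strand. The authors checked the reads with FastQC (0.11.3), quantified them with Kallisto on mm9, calculated FPKM with DESeq2 and deposited FPKM values of 22611 genes in the 6 libraries, which were used here. The annotation behind the quantification is not given in the sources used here. A second deposited table holds the authors' own comparison (mean counts, log2 fold changes, errors, p-values and adjusted p) and was not used. Since the values are not counts, no count test was run.

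Genes entered the test if their FPKM averaged above 1 (10596 genes), on log2(FPKM + 0.1), with limma 3.58.1 in R 4.3.3 (by lmFit, then eBayes with a mean-variance trend, no covariate, Benjamini-Hochberg adjustment over all genes tested), and tables were made with pandas 2.3.3. The pipeline was tested on simulated data. The scale understates changes of low genes. Library depth is unknown from FPKM, and ratios of values under 0.2 FPKM put the divisor of each library at 0.829 to 1.03 times that of WT 1. Gene positions are from GENCODE release M1 on mm9, in which all 77 symbols matched, and promoters from RefSeq. Alternatives were another pseudocount, other filters, scalings, thresholds and variance model, the replicate number as a block, Y-linked transcripts as a covariate or a choice of libraries, each library left out, and, added after the data had been seen, removal of each library's loess trend with transcript length.

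The members, gene lists and tests were chosen with earlier results of these data known. In each subunit the text names the called genes, the 10 with the smallest p, the 3 with the most positive fold change, the 3 most and 3 least abundant, members below the filter and those whose place differs from their symbol, and in each pathway list the 3 with the smallest p. Other members are given by their values, and those described further were chosen after their values were seen. The groups by place in the ribosome, the genes that overlap a member and the windows around promoter strings, apart from that of *Mrpl12*, were chosen after their values were seen.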

Additional observations from a re-analysis of the deposited data

How the results depend on the processing

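The direction of both medians was the same under every alternative run, and 0 genes were called higher under any of them. The 4 large subunit genes called lower became 2 in the libraries with Y-linked transcripts (where 3.28% of all genes were called lower), 0 at an adjusted p under 0.05, 14 at an unadjusted p with no fold, and 2 to 7 with 1 library left out. With 1 library left out the share of all genes called lower moved as well, from 3.28% to between 2.38% (without *Esrra*-/- 1) and 5.07% (without *Esrra*-/- 2), and 6.49% of all genes had a negative log2 fold change at an unadjusted p under 0.05. The 3 small subunit genes became 1 with a pseudocount of 1 (2.37% of all genes), 0 at an adjusted p, 8 at an unadjusted p with no fold, and 1 to 5 with 1 library left out. The 2 of 49 genes called in the 3 lists of other genes of mitochondrial translation became 1 with a pseudocount of 1, 1 in the libraries with Y-linked transcripts, 0 at an adjusted p, 9 at an unadjusted p with no fold, and 1 to 5 with 1 library left out. The causes were not tested, apart from the thresholds themselves. The large subunit median ran from −0.25 to −0.16 with 1 library left out and the small subunit median from −0.23 to −0.091, its value being −0.091 without WT 3 and −0.095 without *Esrra*-/- 1 against −0.17 with all libraries. For the 36 named members, 531 of 576 values under the alternatives kept their direction and their side of the call, 15 lost and 10 gained a call, and 20 values of 8 uncalled members changed sign, none of them called. These were *Mrpl52* at 0.0085 and *Mrps15* at 0.069 in the libraries with Y-linked transcripts, *Mrpl52* at 0.18, *Mrps15* at 0.094 and *Mrps21* at 0.064 with the length trend removed, and *Mrps18a* at −0.014 with median-ratio scaling and −0.041 with quantile normalization. With 1 library left out, values ran from −0.0020 to 0.31 for *Mrpl14*, −0.018 to 0.11 for *Mrpl22*, −0.084 to 0.070 for *Mrpl52*, −0.064 to 0.197 for *Mrpl54*, −0.082 to 0.31 for *Mrps10*, −0.17 to 0.17 for *Mrps15*, −0.086 to 0.12 for *Mrps18a* and −0.24 to 0.061 for *Mrps21*. Genotypes share replicate numbers, and the labels do not say whether these pair the mice. The correlations of the deviations were 0.0116, 0.263 and 0.376 for same-numbered mice and from −0.366 to 0.182 for differently numbered mice. These values do not settle the question, and the main test took the mice as unpaired. With the replicate block, 4 large and 3 small subunit genes were called, the same 7, with 4.16% of all genes called lower, and 0 were called higher; the medians stayed at −0.21 and −0.17, and 2 genes of the 3 lists were called. Without fragment counts, the counting error of single genes is unknown.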
